A study of Homo sapiens with 9 samples.

Results

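The mRNAs of 7 inhibitors of the growth kinase complex mTORC1 were followed in HEK293T cells given one of a pair of related fluorogenic ligands. The genes were the 3 sestrins SESN1, SESN2 and SESN3, the stress-induced inhibitor DDIT4 (also called REDD1), the translation repressors EIF4EBP1 and EIF4EBP2, and the mTOR-binding protein DEPTOR. They were chosen by name, were found by gene symbol and identifier, and make up 7 of the 57500 genes counted. HEK293T, an established human embryonic kidney line that carries the SV40 large T antigen, a viral protein that binds p53, was left with vehicle (DMSO), with 10 µM HBC530 or with 10 µM MsOc3HBC for 5 h, with 3 biological replicates and so 3 libraries of each. HBC530 lights up when the Pepper RNA aptamer binds it and is held without a covalent bond. MsOc3HBC is its relative with a reactive mesylate handle, made to tether itself to that aptamer. The sequenced RNA was profiled to ask whether the reactive ligand disturbs the cell's own transcripts.

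mTORC1 is a kinase complex on the lysosome that drives protein synthesis when amino acids, growth factors and energy are in supply. Sestrins hold it back through GATOR2, and SESN2 releases this brake when it binds leucine. DDIT4 acts through the TSC complex, the 4E-BP proteins encoded by EIF4EBP1 and EIF4EBP2 hold the cap-binding factor eIF4E until mTORC1 phosphorylates them, and DEPTOR binds mTOR itself. Transcription of SESN2, DDIT4 and EIF4EBP1 is known to respond to ATF4, the transcription factor of the integrated stress response, that of SESN1 and SESN2 to p53, that of SESN1 and SESN3 to FOXO factors, and that of DDIT4 to hypoxia-inducible factor (HIF).

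Between 28056929 and 62205366 counts lay on genes in each library. On the first principal component of 18041 genes, which held 37.3% of the variance, replicate 3 of HBC530 (36.94) and of MsOc3HBC (48.79) stood apart from the other 7 libraries (-20.28 to -4.28), and these were also the 2 libraries with the fewest counts. Values without this pair are given where they change a member's call or move its estimate by over 1.5 times. The line markers PAX2, LHX1, NEFM and INA were detected in all 9 libraries, at no less than 2.09 CPM (counts scaled to library size), whereas ALB, PTPRC and PECAM1 of other tissues reached at most 0.11 CPM and the muscle marker DES 0.533 CPM. In RNA of whole cultures, a change in the share of cells with a transcript and a change in RNA per cell cannot be told apart.

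Levels of different genes were compared per kilobase of exonic length. In DMSO, EIF4EBP1 was the most abundant of the 7 with 194.6 ± 18.7 CPM per kb (mean ± SD, n = 3 for all groups), above 98.9% of 18041 expressed genes. DDIT4 followed with 39.6 ± 1.43, EIF4EBP2 with 23.0 ± 0.43 and SESN2 with 18.3 ± 1.09 CPM per kb. SESN1 (4.27 ± 0.149), DEPTOR (2.36 ± 0.184) and SESN3 (1.45 ± 0.116) formed the low end, and SESN3 lay above 41.5% of genes. No neighbours in this order overlapped between their 3 libraries. With HBC530, SESN2 (22.4 ± 2.02 CPM per kb) and EIF4EBP2 (22.0 ± 3.05) overlapped, and with MsOc3HBC all 3 SESN2 libraries (33.0 to 38.0 CPM per kb) lay above all 3 EIF4EBP2 libraries (20.6 to 24.5). The order of the others was kept in both ligand groups.

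**Figure D1:**
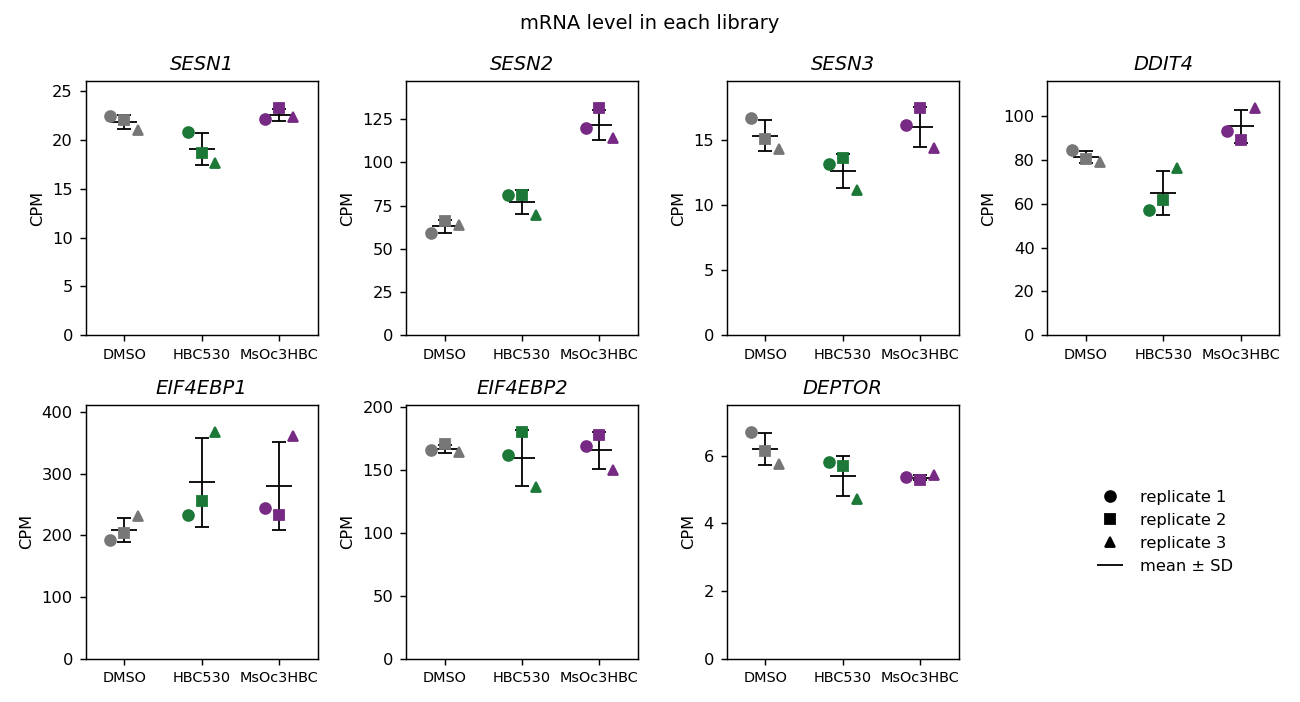
Level of each gene in CPM (vertical axis, linear and from 0) in the 3 libraries of DMSO, HBC530 and MsOc3HBC, with 1 symbol shape per replicate number and bars for mean ± SD. SESN2 stepped from 59.0 to 66.4 CPM in DMSO to 114 to 131 CPM in MsOc3HBC, DDIT4 lay below DMSO with HBC530 and above it with MsOc3HBC, and EIF4EBP1 was highest in replicate 3 of both ligands.

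SESN2, a leucine-sensing sestrin, rose with MsOc3HBC. It was the only member to pass the test with the libraries unpaired (1 of 7, against 0.154% of all genes tested). The gene lies on chromosome 1 (GRCh38, chr1:28259527-28282491, plus strand). SESN2 stood at 59.0, 66.4 and 63.9 CPM in DMSO replicates 1 to 3, at 81.4, 81.3 and 69.3 CPM with HBC530, and at 120.1, 131 and 114 CPM with MsOc3HBC. No library of one treatment overlapped those of another, and the order in all was DMSO, HBC530, MsOc3HBC. With MsOc3HBC the level was 1.94-fold that of DMSO, a log2 fold change of 0.95 (SE 0.0947, 95% confidence interval 0.74 to 1.16, adjusted p = 0.00198 by the quasi-likelihood F test of edgeR, adjusted over all genes tested). The adjusted p was 0.0526 without DMSO replicate 1, the lowest DMSO library, where the log2 fold change was 0.90. It stayed under 0.05 in the other 16 of 17 alternative fits. Among these, the fits without MsOc3HBC replicate 3 and without replicate 3 of both ligands are the same fit, counted under both names. With HBC530 the log2 fold change was 0.30 (SE 0.0958, interval 0.08 to 0.51), which did not pass (adjusted p = 0.751, edgeR).

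SESN2 and DDIT4 had the largest estimated differences between the ligands, and the 250 bases before their start sites are shown with the matches to motifs of the known regulators. The sequences are RefSeq's for GRCh38.p14, plus strand, chr1:28259268-28259517 for SESN2 and chr10:72273674-72273923 for DDIT4, and capitals mark a match.
SESN2: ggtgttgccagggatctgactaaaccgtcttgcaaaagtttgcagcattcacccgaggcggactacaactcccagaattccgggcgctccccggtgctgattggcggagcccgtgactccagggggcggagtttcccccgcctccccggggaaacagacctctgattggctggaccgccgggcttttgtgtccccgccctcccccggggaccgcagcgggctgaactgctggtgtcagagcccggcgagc
DDIT4: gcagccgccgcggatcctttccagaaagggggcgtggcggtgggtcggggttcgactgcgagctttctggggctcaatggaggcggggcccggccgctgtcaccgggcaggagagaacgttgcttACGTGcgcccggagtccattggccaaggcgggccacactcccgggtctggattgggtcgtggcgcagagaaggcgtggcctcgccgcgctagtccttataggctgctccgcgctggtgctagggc
Both strands were searched for the ATF4 composite element TGATGNAA, the cAMP response element TGACGTCA, the hypoxia response core ACGTG, the E-box CACGTG (which holds ACGTG) and the FOXO core TGTTTAC. These occurred in 3.14, 1.65, 18.5, 6.34 and 2.98% of 35116 promoter windows of this length. SESN2 held none of these letters in its window. The match in DDIT4 is a hypoxia response core that begins 125 bases before the start. The windows of SESN1 (3 start sites), SESN3 and EIF4EBP2 held none, and EIF4EBP1 and DEPTOR were not searched.

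SESN1 and SESN3, the FOXO-responsive paralogues, stayed close to DMSO with MsOc3HBC and had lower estimates with HBC530. SESN1 (chr6:108986437-109094819, minus strand) had 22.5, 22.0 and 21.0 CPM in DMSO, 20.9, 18.7 and 17.7 CPM with HBC530, and 22.1, 23.3 and 22.4 CPM with MsOc3HBC. All 3 HBC530 libraries lay below the DMSO libraries, while those of MsOc3HBC overlapped DMSO. SESN3 (chr11:95165513-95232541, minus strand) had 16.7, 15.1 and 14.3 CPM in DMSO, 13.2, 13.7 and 11.2 CPM with HBC530, and 16.2, 17.5 and 14.4 CPM with MsOc3HBC, the same arrangement. The log2 fold changes with HBC530 were -0.19 (SE 0.0973) for SESN1 and -0.27 (SE 0.111) for SESN3, and with MsOc3HBC they were 0.05 (SE 0.0911) and 0.07 (SE 0.1096). None of the 4 passed the test (adjusted p = 0.751 for each with HBC530, 0.86 and 0.848 with MsOc3HBC, edgeR), and the last estimate was 0.14 without replicate 3 of both ligands. A lncRNA on the strand opposite SESN3 held 4 to 20 counts per library where SESN3 held 368 to 955, and one opposite SESN1 held at most 3.

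Since the sestrins act on the same target, the share of SESN2 in their summed CPM per kb was also taken within each library, where the scaling of libraries cancels. SESN2 made up 74.1, 77.0 and 77.2% of it in DMSO. The share was 81.6, 82.7 and 81.7% with HBC530 and 85.6, 86.0 and 85.2% with MsOc3HBC. The ranges of the 3 treatments were apart, with differences of means of 5.86 percentage points for HBC530 and 9.49 points for MsOc3HBC against DMSO, and 3.63 points between the ligands. Each gave p = 0.1 in a two-sided exact permutation test, the smallest p that 3 against 3 libraries allow, so this design could not reach 0.05. G and C make up 59.6% of SESN2, 40.6% of SESN1 and 37.1% of SESN3. With each library's trends over GC content and length removed, their log2 fold changes with HBC530 were 0.22, -0.14 and -0.16. With MsOc3HBC they were 0.98, 0.015 and 0.03. The part of composition in the shares was not tested.

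**Figure D2:**
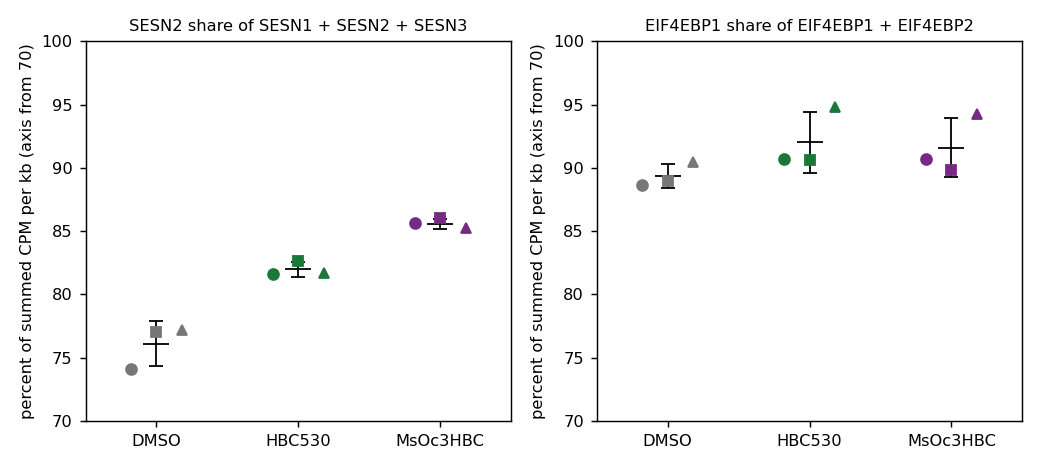
Share of SESN2 in the summed sestrin level (left) and of EIF4EBP1 in the summed EIF4EBP1 and EIF4EBP2 level (right), in percent of CPM per kb on a vertical axis that starts at 70, for the 3 libraries of each treatment with mean ± SD. The SESN2 share climbed from 74.1 to 77.2% in DMSO to 85.2 to 86.0% with MsOc3HBC, while replicate 3 of both ligands (94.8 and 94.2%) set the spread of the EIF4EBP1 share.

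DDIT4 (chr10:72273920-72276036, plus strand), which shuts down mTORC1 in hypoxia and other stress, was the member whose libraries lay on opposite sides of DMSO with the 2 ligands. It had 84.7, 80.6 and 79.0 CPM in DMSO, 57.0, 61.6 and 76.2 CPM with HBC530, and 93.2, 89.2 and 103.7 CPM with MsOc3HBC. Every HBC530 library was below every DMSO library, and every MsOc3HBC library was above. The log2 fold change was -0.33 with HBC530 (SE 0.111, interval -0.57 to -0.08, adjusted p = 0.751, edgeR) and 0.23 with MsOc3HBC (SE 0.0943, interval 0.02 to 0.44, adjusted p = 0.42, edgeR), so neither passed. Both comparisons use the same DMSO libraries. Replicate 3 of HBC530 was the closest to DMSO, and without replicate 3 of both ligands the estimates were -0.45 (adjusted p = 0.0873, edgeR) and 0.17 (adjusted p = 0.306, edgeR).

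Neither translation repressor passed the test with either ligand. EIF4EBP1 (chr8:38030341-38060365, plus strand) had 191.7, 203.9 and 231 CPM in DMSO, 233, 256 and 367.5 CPM with HBC530, and 245, 233 and 361 CPM with MsOc3HBC. Each of the 6 libraries from ligand-treated cells exceeded all 3 of DMSO, and the pair of replicates numbered 3 lay far above the other 4. The log2 fold changes were 0.45 with HBC530 (SE 0.155) and 0.43 with MsOc3HBC (SE 0.157), and neither passed the test (adjusted p = 0.751 and 0.384, edgeR). Without replicate 3 of both ligands they were 0.24 (SE 0.0823) and 0.20 (SE 0.0815). The longest transcript of EIF4EBP1 holds 62.9% G and C, the highest share of the 7 genes. With each library's trends over GC content and length removed the log2 fold changes were 0.32 and 0.39. The part of composition or of these libraries in the higher level was not tested.

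EIF4EBP2 (chr10:70404379-70428618, plus strand) had 166, 170.5 and 164 CPM in DMSO, 162, 180.2 and 136 CPM with HBC530, and 169, 178 and 149.6 CPM with MsOc3HBC. The groups overlapped, and the lowest values were those of replicate 3 of both ligands, the reverse of EIF4EBP1. The log2 fold changes were -0.07 (interval -0.30 to 0.17) with HBC530 and -0.01 (interval -0.21 to 0.20) with MsOc3HBC (adjusted p = 0.863 and 0.984, edgeR). Without replicate 3 of both ligands they were 0.04 and 0.06, of the opposite sign. EIF4EBP1 made up 88.6, 89.0 and 90.5% of the summed CPM per kb of the pair in DMSO, 90.7, 90.6 and 94.8% with HBC530, and 90.7, 89.9 and 94.2% with MsOc3HBC. HBC530 lay above DMSO by 2.66 points with no overlap (two-sided exact permutation p = 0.1), and MsOc3HBC overlapped DMSO with a difference of 2.23 points (exact permutation p = 0.2). These differences were 1.27 points without HBC530 replicate 3 and 0.92 points without MsOc3HBC replicate 3. The ligands differed by -0.42 points (MsOc3HBC minus HBC530, exact permutation p = 0.7). The pseudogenes of both genes held at most 2 counts in a library.

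DEPTOR (chr8:119873717-120050913, plus strand) was the least counted member, with 145 to 368 counts per library. It had 6.70, 6.14 and 5.74 CPM in DMSO, 5.81, 5.69 and 4.73 CPM with HBC530, and 5.36, 5.29 and 5.41 CPM with MsOc3HBC. The MsOc3HBC libraries all lay below DMSO and those of HBC530 overlapped it. The log2 fold changes of -0.18 (interval -0.45 to 0.08) with HBC530 and -0.21 (interval -0.46 to 0.05) with MsOc3HBC did not pass the test (adjusted p = 0.751 and 0.531, edgeR). Without replicate 3 of both ligands the first was -0.10 and the second -0.21. An antisense lncRNA at this locus held at most 4 counts. A gene without a symbol on the strand opposite DDIT4 shared 847 exonic bases with it and held 0 counts. Whether reads were counted by strand is not stated, so overlapping genes cannot be told apart fully. These counts bound what such neighbours were assigned, but not how many reads the overlaps left out of a member.

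Over the 7 members, 0 passed with HBC530 against DMSO by edgeR, and DESeq2 and limma-voom also called 0. In the whole transcriptome 0.017% of 17684 genes passed. An unadjusted p under 0.05 was reached by 4 of 7 members and by 897 of these genes. With MsOc3HBC against DMSO 1 of 7 passed, against 0.154% of 17514 genes, and 3 of 7 members and 1909 of these genes had an unadjusted p under 0.05. All 7 members were kept by the filter on low counts in each comparison. The libraries of the groups did not overlap for 5 of 7 members with HBC530 (2 higher and 3 lower), against 13.8% of all genes tested, and for 4 of 7 with MsOc3HBC (3 higher and 1 lower), against 18.3%. The median log2 fold change of the members was -0.18 with HBC530 and 0.07 with MsOc3HBC, where the medians of all genes were 0.00 and 0.01.

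**Figure D3:**
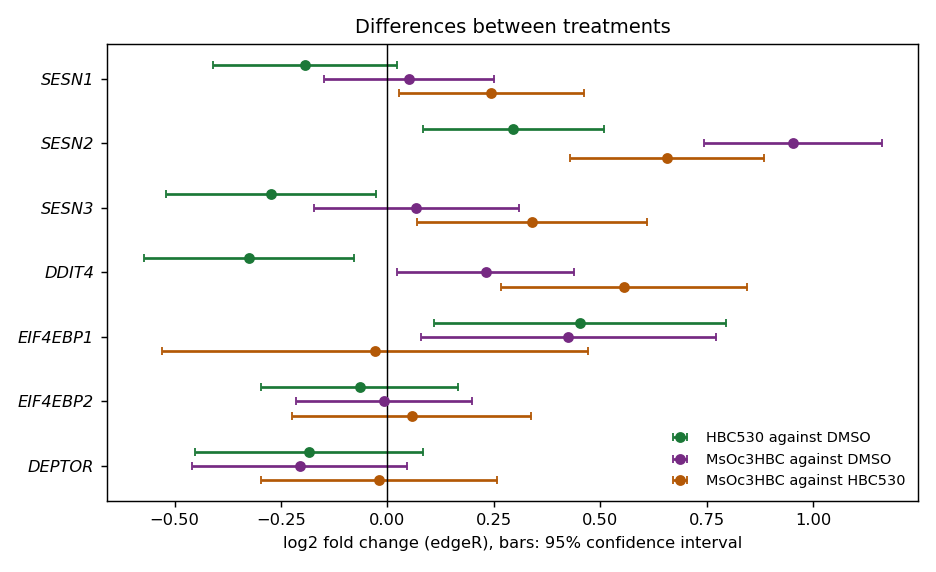
Log2 fold change of each gene (horizontal axis) in the 3 comparisons, with bars for the 95% confidence interval of edgeR's fit without a replicate block. SESN2 with MsOc3HBC against DMSO stood at 0.95 (interval 0.74 to 1.16), and the DDIT4 intervals for the ligands lay on opposite sides of 0.

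The ligands were then compared directly, as 1 pair of compounds at the same dose and time. SESN2 was 1.58-fold higher with MsOc3HBC than with HBC530 (log2 difference 0.66, SE 0.0992, interval 0.43 to 0.88), and DDIT4 was 1.47-fold higher (0.56, SE 0.126, interval 0.27 to 0.85). SESN3 differed by 0.34 (interval 0.07 to 0.61) and SESN1 by 0.24 (interval 0.03 to 0.46) on the log2 scale. For these 4 genes, all MsOc3HBC libraries lay above all HBC530 libraries, as for 15.4% of all genes tested in either direction.

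By edgeR with the libraries unpaired, 0 of 7 members passed (adjusted p = 0.491 for SESN2 and 0.643 for DDIT4, SESN3 and SESN1), as did 0% of all 17397 genes tested. An unadjusted p under 0.05 was reached by 4 members and 1274 genes, DESeq2 called 2 and limma-voom 0. Libraries of the ligands with the same replicate number deviated together (r = 0.167, 0.368 and 0.433 for replicates 1 to 3). The comparison was therefore also fitted with the replicate as a block. Deviations were taken from group means that hold the outlying replicate 3 of both ligands. The check therefore cannot show a pairing of replicates 1 and 2, and the labels do not state one. With the block 4 of 7 members passed, against 11.4% of all genes: SESN2 (adjusted p = 2.77e-05, edgeR), DDIT4 (adjusted p = 0.000254, edgeR), SESN3 (adjusted p = 0.00902, edgeR) and SESN1 (adjusted p = 0.0375, edgeR). With GC content and length trends removed as well, SESN2 (0.77) and DDIT4 (0.65) still passed (both adjusted p = 1.29e-05, edgeR), and SESN3 (0.19, adjusted p = 0.146) and SESN1 (0.15, adjusted p = 0.218) did not. Without replicate 3 of both ligands and with no block, SESN2, DDIT4 and SESN3 passed (adjusted p = 2.82e-05, 4.72e-05 and 0.0205, edgeR). That fit also called 30 of 128 genes of the pathway lists described below. The share of all genes that passed was not taken for this fit, for DESeq2 or with trends removed. These counts are therefore not read as particular to the members.

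The other 3 members showed no difference between the ligands that passed in any of the alternative fits. The interval of the log2 difference (MsOc3HBC minus HBC530) was -0.53 to 0.47 for EIF4EBP1, -0.22 to 0.34 for EIF4EBP2 and -0.30 to 0.26 for DEPTOR. With the replicate block the differences were -0.03 (SE 0.0507), 0.06 (SE 0.0492) and -0.03 (SE 0.102), and without replicate 3 of both ligands they were -0.04, 0.02 and -0.12.

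The rest of the mTORC1 machinery was then examined in 5 lists with 69 genes, none of them a member. They hold the amino acid sensing complexes, the Rag GTPases with Ragulator, the TSC complex with its kinases, the subunits of the mTOR complexes, and the cap-binding and S6 kinase outputs. Against DMSO, 0 of 69 passed with either ligand, by edgeR, DESeq2 or limma-voom, and the unadjusted p was under 0.05 for 0 genes with HBC530 and 5 with MsOc3HBC. The log2 fold changes ran from -0.31 to 0.46 with HBC530 (median -0.02) and from -0.42 to 0.64 with MsOc3HBC (median -0.02). The upper end in both was RHEBL1, a RHEB-like GTPase, at 0.533 CPM in DMSO, 0.743 CPM with HBC530 and 0.85 CPM with MsOc3HBC (adjusted p = 0.751 and 0.381, edgeR).

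The other genes that the naming rule took from these lists did not pass either. RPTOR, the scaffold that gives mTORC1 its substrates, had 116.7 ± 8.64 CPM in DMSO and 93.4 ± 15.2 CPM with MsOc3HBC (log2 fold change -0.32, adjusted p = 0.404, edgeR). AKT1S1, which encodes the mTORC1 inhibitor PRAS40, had 153 ± 17.7 and 129 ± 2.87 CPM (-0.24, adjusted p = 0.432, edgeR). The translation scaffold EIF4G1 (-0.32), the Ragulator subunit LAMTOR2 (0.32), RRAGC (0.20), the kinase STK11 (-0.18), the helicase EIF4A1 (-0.16), the GATOR1 subunit NPRL2 (0.18) and the methionine sensor SAMTOR (-0.19) completed them. LAMTOR2 was highest and EIF4G1 lowest in replicate 3 of both ligands, and the part of these libraries in their estimates was not tested. The lower end of the range with MsOc3HBC was CASTOR2 (-0.42, adjusted p = 0.544, edgeR), named after its value was seen.

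Between the ligands, 0 of the 69 genes passed by edgeR without a block, with an unadjusted p under 0.05 for 7 and 0 calls by DESeq2 and limma-voom. With the replicate block 6 were higher and 10 lower with MsOc3HBC, 16 of 69 genes where 11.4% of all genes passed, and the subunits of the mTOR complexes gave 6 of these calls. Without replicate 3 of both ligands and with no block, 3 were higher and 11 lower, a fit for which the share of all genes was not taken. Over all 128 list genes, the calls with the block went from 35 to 9 once GC content and length trends were removed. Which genes were among these 9 was not examined. The values that follow are from the blocked fit with the trends left in. RPTOR (-0.26), MLST8 (-0.35), AKT1S1 (-0.24), PRR5 (-0.26) and TELO2 (-0.26) were lower, whereas RICTOR, the scaffold of mTORC2, was higher (0.39). TSC2 (-0.28) and STK11 (-0.26) were also lower with the block, and RPS6KB1, the S6 kinase gene, was higher (0.22 on the log2 scale). MLST8, PRR5, TELO2, RICTOR, TSC2 and RPS6KB1 were named after their values were seen.

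Among 8 other brakes and paralogues, 0 passed in any comparison by edgeR without a block, DESeq2 or limma-voom, with an unadjusted p under 0.05 for 0 genes with HBC530 and 1 with MsOc3HBC against DMSO and for 1 between the ligands. GRB10, an adaptor that restrains insulin signalling, came nearest with MsOc3HBC against DMSO (log2 fold change 0.28, adjusted p = 0.332, edgeR), and the phosphatase gene PHLPP1 had -0.27 (adjusted p = 0.503, edgeR). The paralogue of DDIT4, DDIT4L, was low at 1.76 CPM in DMSO, 1.53 CPM with HBC530 and 1.59 CPM with MsOc3HBC. EIF4EBP3, which overlaps the readthrough gene ANKHD1-EIF4EBP3, was barely counted. It had 0.212 CPM in DMSO, 0.121 CPM with HBC530 and 0.153 CPM with MsOc3HBC. By edgeR it was tested only with MsOc3HBC against DMSO, so 7 of the 8 genes were tested in the other comparisons.

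**Figure D4:**
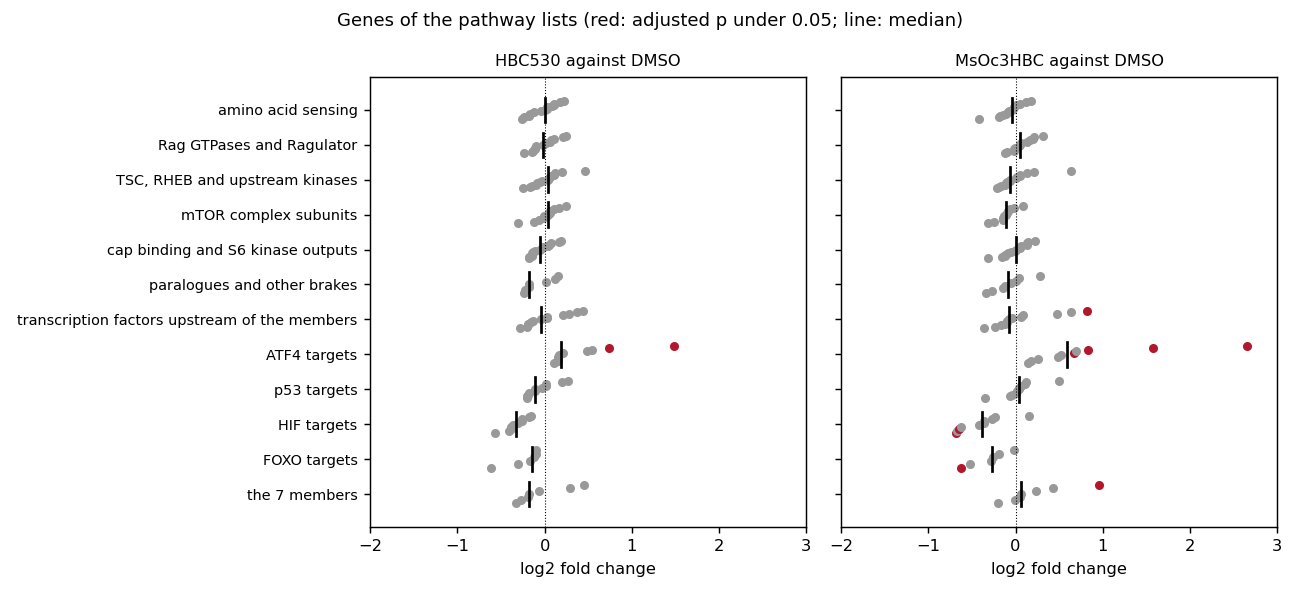
Log2 fold change against DMSO (horizontal axis) of each gene of the 11 lists and of the 7 members, with HBC530 on the left and MsOc3HBC on the right, red where the adjusted p of edgeR was under 0.05 and with a line at each median. Calls lie in the ATF4, HIF and FOXO target lists, among the upstream transcription factors and at SESN2, and none in the 5 lists of mTORC1 machinery.

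The targets of the factors known to act on the members were counted in lists that hold none of the members. These lists were chosen with earlier results of these data known. Their counts and shared directions therefore describe the listed genes only and are no independent support. All 10 ATF4 targets had estimates above 0 with both ligands, and 2 passed with HBC530 and 4 with MsOc3HBC, all higher, where 3 genes (all higher) and 27 genes (14 higher and 13 lower) passed in the whole transcriptome. Their median log2 fold change was 0.18 with HBC530 and 0.59 with MsOc3HBC. CHAC1, a glutathione-degrading enzyme, rose from 2.35 CPM in DMSO to 6.58 CPM with HBC530 (adjusted p = 0.00062, edgeR) and 14.8 CPM with MsOc3HBC (adjusted p = 3.7e-06, edgeR). The cystine transporter gene SLC7A11 rose from 9.21 to 27.3 CPM with MsOc3HBC (adjusted p = 0.00142, edgeR), and CTH, which makes cysteine, from 24.6 to 38.9 CPM (adjusted p = 0.0235, edgeR). ATF3 rose from 35.2 CPM to 58.6 CPM with HBC530 and 62.3 CPM with MsOc3HBC (adjusted p = 0.0367 and 0.00339, edgeR).

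Of 13 upstream transcription factors, DDIT3 alone passed, from 3.01 to 5.36 CPM with MsOc3HBC (adjusted p = 0.04998, edgeR), and its locus overlaps that of MARS1. DESeq2 called 3 of the 13 and limma-voom 0. The mRNA of ATF4 stood at 649.5 CPM in DMSO, 838 CPM with HBC530 and 1004 CPM with MsOc3HBC, with log2 fold changes of 0.37 and 0.63 that did not pass (adjusted p = 0.751 and 0.0728, edgeR). In 11 p53 targets 0 passed with either ligand by edgeR and limma-voom, DESeq2 called 1 with MsOc3HBC, and the unadjusted p of edgeR was under 0.05 for 1 gene with each ligand. CDKN1A, the best known of them, had 26.1 CPM in DMSO, 29.9 CPM with HBC530 and 28.3 CPM with MsOc3HBC, and GADD45A had 32.9, 39.6 and 46.5 CPM (adjusted p = 0.751 and 0.142, edgeR).

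Most HIF targets had estimates below 0. Of the 10 tested of 11, all 10 with HBC530 and 9 with MsOc3HBC were on that side, with medians of -0.33 and -0.39. The glucose transporter gene SLC2A1 fell from 99.6 to 63.2 CPM with MsOc3HBC (adjusted p = 0.014, edgeR) and ADM, which encodes adrenomedullin, from 14.9 to 9.26 CPM (adjusted p = 0.031, edgeR). All 6 FOXO targets had estimates below 0 with both ligands, and TXNIP, an inhibitor of thioredoxin and glucose uptake, fell from 11.7 to 7.61 CPM with MsOc3HBC (adjusted p = 0.0471, edgeR). With MsOc3HBC, limma-voom called 0 of these 6 and DESeq2 called 2, and of the HIF targets they called 2 and 5. CITED2 did not pass, with 66.3 CPM in DMSO and 46.1 CPM with MsOc3HBC (adjusted p = 0.0728, edgeR).

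The number of list genes that passed depended on single libraries. With MsOc3HBC it was 8 of 128 and became 3 without DMSO replicate 1, 2 or 3 or without MsOc3HBC replicate 1, and 15 without MsOc3HBC replicate 3. With HBC530 it was 2, and 1 without any single library other than HBC530 replicate 3. In the main fits 0.154% of all genes passed with MsOc3HBC and 0.017% with HBC530. This share was not taken for the fits without a library, so the changes are not read as particular to the lists.

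The genes most like SESN2 were sought among 12258 with a mean of at least 100 counts, by Pearson's r of log2 CPM over the 9 libraries. SLC6A9, a glycine transporter gene, led with r = 0.981 (14.7, 18.2 and 29.5 CPM on average in DMSO, HBC530 and MsOc3HBC), followed by R3HDM2 (0.979), SLC7A11 (0.974), DHTKD1, a mitochondrial dehydrogenase subunit gene (0.97), and CTH (0.964). SLC7A11 and CTH are on the list of ATF4 targets. The 9 points share libraries and treatments, so r describes these libraries only. The mean of DHTKD1 moved from 45.1 CPM in DMSO to 51.3 CPM with MsOc3HBC, so likeness in shape did not mean likeness in size.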

How the data were processed

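Poly(A) RNA of HEK293T cells was sequenced with paired-end reads in 3 biological replicates per treatment. Reads were trimmed with Trimmomatic 0.36, mapped to GRCh38 with STAR 2.5.2b and counted with featureCounts (Subread 1.5.2), and the deposited count files hold raw counts of the authors for 57500 genes. The annotation release and strand setting are not given in the sources used here. The signal columns of the authors' tables are raw counts divided by 1 constant per library, and were not used. The log2 fold change and p-value columns of the authors' comparisons were not used either. Replicates differed by more than sampling noise (chi-square per gene 5.73 to 65.4).

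Treatments were compared 3 libraries against 3 with edgeR 4.0.16 in R 4.3.3 (filterByExpr, TMM scaling, quasi-likelihood F test, Benjamini-Hochberg adjustment over all genes, threshold 0.05). CPM values use TMM factors, and log2 CPM a prior count of 1. Group overlap was read from CPM of single libraries. Replicate numbers were checked by the correlation, over 18041 genes, between same-numbered libraries after group means were subtracted. This was 0.167, 0.368 and 0.433 between the ligands, all over 0.1, so blocked values are given there. Replicate 3 of both ligands is part of the group means, so its shared shift enters all of these correlations. Positions and exonic lengths of genes come from the count files. GC content is that of each gene's longest transcript in GENCODE 44. Alternatives were DESeq2 1.42.0, RLE and upper-quartile factors, other filters on low counts, all 9 libraries in 1 fit, the replicate block, limma-voom (limma 3.58.1), each library left out, replicate 3 of both ligands left out and, added after seeing the data, removal of GC and length trends. Fits were tested on simulated data. All members were named, with the pathway list genes that passed (at most 5 per list, or the 2 with the smallest p), the paralogues DDIT4L and EIF4EBP3, and the 5 genes most correlated with a member that passed. The members and lists were chosen with earlier results of these data known. One further line marker is not reported here.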

Additional observations from a re-analysis of the deposited data

Results flagged for a closer look

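DDIT4 stood out because every HBC530 library lay below every DMSO library and every MsOc3HBC library lay above. Groups of libraries did not overlap, in either direction, for 13.8% of all genes tested with HBC530 and 18.3% with MsOc3HBC against DMSO. The log2 difference of MsOc3HBC minus HBC530 was 0.5559. The test of the difference itself gave an adjusted p of 0.643 without and 0.000254 with the replicate as a block (edgeR's quasi-likelihood test). With the block 11.4% of all genes passed, and the labels do not state a pairing of replicates.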

How the results depend on the processing

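SESN2 rose with MsOc3HBC in all 17 alternative fits, with log2 fold changes from 0.89 to 0.996, and passed in 16 of them. The fit without MsOc3HBC replicate 3 is the same as that without replicate 3 of both ligands and is counted under both names. No member that passed changed sign. The limits are the 3 libraries per group, which put the smallest exact p at 0.1, and the spread of replicate 3 of both ligands. EIF4EBP1 had the largest SE of the 7 in each comparison (0.155, 0.157 and 0.218).

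The number of members that passed moved with the settings. The share of all genes that passed was taken only for the main fits and for the block between the ligands. With HBC530 it was 0 and became 1 with no filter on low counts (EIF4EBP1). With MsOc3HBC against DMSO it was 1, became 2 with no filter, and ran from 0 to 1 over the fits that left out 1 library. Between the ligands it was 0 and became 2 with DESeq2, 2 with no filter, 4 with the replicate block, 3 without replicate 3 of both ligands and 2 with the block and trends removed.

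List genes that passed with HBC530 numbered 2, became 5 with no filter and ran from 1 to 2 with 1 library left out. With MsOc3HBC against DMSO they numbered 8 and became 18 with DESeq2, 18 with no filter, 16 with the replicate block, 15 without replicate 3 of both ligands, 13 with the block and trends removed, and 3 to 15 with 1 library left out. Same-numbered ligand and DMSO libraries did not all deviate together (r from -0.111 to 0.172), so this block is not read as a pairing. Between the ligands they numbered 0 and became 2 with DESeq2, 2 with no filter, 1 with all 9 libraries in 1 fit, 35 with the replicate block, 30 without replicate 3 of both ligands, 1 with trends removed and 9 with the block and trends removed. Of all genes, 0.017% passed with HBC530, 0.154% with MsOc3HBC and 0% between the ligands in the main fits. With the block between the ligands 11.4% passed, and for the other settings this share was not taken. The causes were not tested.

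Signs turned for estimates near 0. EIF4EBP2 with HBC530 became 0.0419 without replicate 3 of both ligands and 0.000433 with trends removed. EIF4EBP2 with MsOc3HBC against DMSO became 0.0156 with upper-quartile factors, 0.0591 without replicate 3 of both ligands, 0.00369 with trends removed and 0.00404 with the block as well. EIF4EBP1 between the ligands became 0.0787 with trends removed and 0.0629 with the block as well. With 1 library left out, EIF4EBP2 ran from -0.163 to 0.0419 with HBC530, from -0.0643 to 0.0591 with MsOc3HBC and from -0.0431 to 0.153 between the ligands. SESN3 with MsOc3HBC ran from -0.00158 to 0.135, and between the ligands DEPTOR ran from -0.101 to 0.0322 and EIF4EBP1 from -0.252 to 0.196. The EIF4EBP1 share between the ligands ran from -1.74 to 0.966 points.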
